A study of Homo sapiens with 18 samples.

Results

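The comparison described here set AlkB-treated against untreated m1A immunoprecipitates of TRMT61A-knockdown WPMY-1 cells. WPMY-1 is an immortalised human prostate stromal myofibroblast line. All 6 libraries came from cells that carried an shRNA against TRMT61A. Small RNA under 200 nucleotides was pulled down with an antibody against N1-methyladenosine (m1A), and the eluate was divided into a portion incubated with the demethylase AlkB (AlkB+, 3 libraries) and a portion left without it (AlkB-, 3 libraries). The 6 libraries were chosen by their labels out of 18 in the series, which also holds vector cells treated in the same way and inputs of both cell types. Every listed site entered, which made 725 adenosines in 180 tRNA genes, in all libraries the same. Whether the 3 replicates were separate cultures is not said in the labels, and a p-value here covers no more than the variation among these libraries, possibly of technical origin. The TRMT61A mRNA was not measured, and the knockdown itself was not checked here.

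TRMT61A is the catalytic subunit of the TRMT6/TRMT61A methyltransferase, which places m1A at position 58 in the T-loop of cytosolic tRNAs. The methyl group sits on the Watson-Crick face of the base, so reverse transcriptase tends to stop beside it or to read it wrongly. AlkB is a bacterial enzyme that oxidises the methyl group away, and a methylated site is therefore read with fewer mismatches and more complete cDNAs once AlkB has acted.

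Position 58 was taken as the adenosine 15 nucleotides before the 3′ end of the gene. Of 91 such listed sites, 89 followed TTC and 1 further base. The genes below are examples of the patterns described, chosen after their values were seen. Sequences are those of the deposited table, 5′ to 3′ with introns kept, and capitals mark the 5 bases that end in position 58.

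Tyr-GTA-8-1: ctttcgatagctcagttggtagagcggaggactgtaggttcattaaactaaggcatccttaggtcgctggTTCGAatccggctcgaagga
Tyr-GTA-2-1: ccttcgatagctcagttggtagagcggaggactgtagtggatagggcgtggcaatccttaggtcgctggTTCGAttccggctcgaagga
Leu-CAA-2-1: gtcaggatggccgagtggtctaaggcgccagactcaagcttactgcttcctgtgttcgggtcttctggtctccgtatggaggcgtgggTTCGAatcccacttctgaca
Leu-CAG-2-1: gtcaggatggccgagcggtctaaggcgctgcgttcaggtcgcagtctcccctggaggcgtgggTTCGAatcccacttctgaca
Gln-CTG-2-1: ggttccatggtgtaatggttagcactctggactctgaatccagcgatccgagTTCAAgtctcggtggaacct
Pro-AGG-2-1: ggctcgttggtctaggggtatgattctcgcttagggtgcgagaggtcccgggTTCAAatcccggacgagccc
Arg-ACG-2-1: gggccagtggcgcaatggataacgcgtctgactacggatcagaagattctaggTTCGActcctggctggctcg
Phe-GAA-1-3: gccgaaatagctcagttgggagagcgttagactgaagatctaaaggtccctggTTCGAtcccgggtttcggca

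In hg38, Tyr-GTA-8-1 lies on the plus strand at chr6:26575570-26575659 and Tyr-GTA-2-1 on the plus strand at chr2:27050782-27050870. Leu-CAA-2-1 lies on the minus strand at chr6:27605638-27605745 and Leu-CAG-2-1 on the plus strand at chr16:57299951-57300033. Gln-CTG-2-1 is at chr6:27547752-27547823, Pro-AGG-2-1 at chr1:167715488-167715559, Arg-ACG-2-1 at chr3:45688999-45689071 and Phe-GAA-1-3 at chr11:59557497-59557569, all on the minus strand. Near-identical copies may share reads, since over the last 30 bases, Leu-CAA-1-1, 2-1, 3-1, 4-1 and Leu-CAG-2-1 differed at 0 bases from each other. Values of such copies are therefore not taken as independent.

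Reads summed over all sites were 848741, 489135 and 115580 in the AlkB+ libraries, against 890428, 209476 and 666703 in the AlkB- libraries. The AlkB+ libraries had 634, 507 and 426 sites with at least 20 reads, against 394, 503 and 436 in the AlkB- libraries. Depth of the third AlkB+ library was the lowest of the 6, and the first AlkB- library covered the fewest sites despite the most reads. Counts ended near 8000 reads per site, with a highest value of 8015, and 18 genes that came near this cap were left out of the coverage results. No pair of replicates agreed within sampling noise: the chi-square per degree of freedom lay between 71.7 and 502.

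The first question was whether AlkB lowered the mismatch rate, which is the share of reads at a site that carry another base. Position-58 sites were read with few mismatches in both portions, and AlkB did not lower their rate to a degree the tests could detect. At 49 position-58 sites, every library had 20 reads or more, and the median mismatch rate was 0.648%, 0.559% and 0.849% in the AlkB+ libraries, against 0.567%, 0.190% and 0.587% in the AlkB- libraries. The treated value was higher in 3 of 3 pairs, but the groups overlapped. The mean difference of 0.237 percentage points had an exact paired permutation p of 0.25, two-sided, the smallest that 3 pairs allow (unpaired exact permutation p = 0.3). With reads pooled over the same sites the rate was 0.601%, 0.581% and 0.735% with AlkB, against 0.634%, 0.464% and 0.606% without it, an exact paired permutation p of 0.5. Across all 271 tested sites the median was 0.383%, 0.305% and 0.251% with AlkB and 0.289%, 0.158% and 0.337% without it, which also overlapped.

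**Figure D1:**
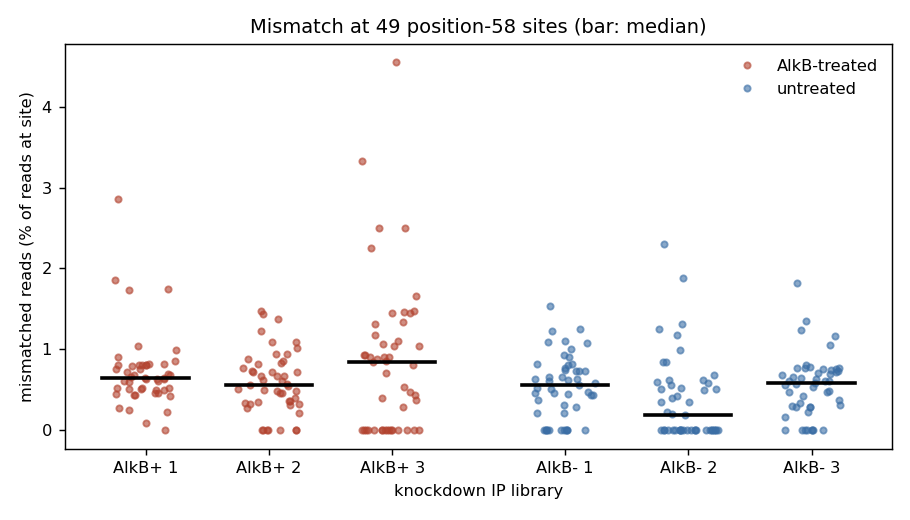
Mismatched reads as a percentage of reads (vertical axis) at 49 position-58 sites in each knockdown IP library (horizontal axis). Each point is a site and each bar the median of a library; the medians run from 0.559% to 0.849% with AlkB and from 0.190% to 0.587% without it.

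Tested site by site with a quasi-binomial model that kept the pairs as a block, 0 of 271 sites passed an adjusted p of 0.05 (0% called). At an unadjusted p under 0.05 there were 25 sites, 15 higher and 10 lower with AlkB, and the lowest adjusted p was 0.181. This count depended on how the dispersion, the extra spread between libraries, was set. The model was first fitted with each site's own dispersion, which called 26 sites, 12 higher and 14 lower. All 26 had an estimated dispersion under 0.1, and 19 of them had no mismatched read in all 3 libraries of a group. On simulated data without any change that version also made calls, so the larger of the site's own and a shared dispersion was used instead, a choice made after the 26 calls had been seen. On simulated data with known changes, limma and edgeR recovered more of the changed sites than this version did, which limits what its count of 0 can show. The simulated mismatch counts held sampling noise alone, without added spread between libraries, and their changes were rises with AlkB only. They therefore cannot rank the methods for these data. Of the other tools, limma called 0 sites and edgeR 1, the site A66 of Gly-GCC-2-1, which was lower with AlkB.

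Direction was counted without a test. Of the 49 position-58 sites, 35 had a higher mean with AlkB and 14 a lower one, beside 166 higher and 105 lower over all 271 sites. The AlkB+ libraries lay wholly above the AlkB- libraries at 9 of the 49 sites (18.4%), beside 8.49% of all sites tested. They lay wholly below at 2 of the 49 (4.08%), beside 3.69% of all sites. The median difference was 0.14 percentage points at position 58 and 0.05 over all sites. Position-14 sites went the other way in their counts, with 12 of 16 lower, and their pooled rate was 0.336%, 0.264% and 0.253% with AlkB, against 0.383%, 0.330% and 0.334% without it (exact paired permutation p = 0.25).

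By amino acid, the position-58 rate of both portions ranged from 0% to 1.36% when pooled per library. Phe-GAA-1-3 had 0.81%, 0.501% and 1.06% mismatched reads with AlkB, against 0%, 0% and 0.293% without it. Its groups did not overlap, but 69 and 184 reads stood behind the zeros and the adjusted p was 0.497. Valine sites pooled to 0.663%, 0.718% and 0.993% with AlkB, against 0.564%, 0.659% and 0.620% without it, and the groups did not overlap either. Leucine sites pooled to 0.59%, 0.481% and 0.631% with AlkB, against 0.585%, 0.499% and 0.614% without it. Initiator methionine tRNA iMet-CAT-1-1, whose m1A58 is needed for its stability in yeast, had 0.23%, 0.339% and 0.849% with AlkB, against 0.309%, 0.397% and 0.476% without it.

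The smallest p-values at position 58 belonged to 2 sites that went in opposite directions. At A58 of Arg-ACG-2-1 the rate was 0.637%, 0.616% and 0.472% with AlkB, against 0.285%, 0.351% and 0.231% without it, from 570 to 8001 reads a library. The groups did not overlap (unadjusted p = 0.00464, quasi-binomial adjusted p = 0.244). At A68 of Leu-CAG-2-1, which is position 58 of that longer tRNA, it was 0.0952%, 0.213% and 0% with AlkB, against 0.516%, 0.839% and 0.568% without it. Here the AlkB+ libraries lay wholly below the AlkB- libraries, and the adjusted p was also 0.244. Leu-CAA-4-1, whose 3′ end is the same, had 0.948%, 1.43% and 1.49% at the neighbouring A92 with AlkB, against 0.397%, 0.577% and 0.618% without it (adjusted p = 0.244).

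The lowest unadjusted p of all sites was that of A60 in Val-AAC-1-1, at 0.245%, 0.46% and 0% with AlkB and 0.818%, 0.58% and 0.412% without it (adjusted p = 0.181). The input of the same cells had 0.248%, 0.19% and 0.539% there. A72 of Ala-TGC-3-2 and A14 of Ser-AGA-3-1 had no mismatched read in any AlkB+ library. Without AlkB the rates were 0.262%, 0% and 0.196% at the alanine site and 0.543%, 0.671% and 0.156% at the serine site. A73 of Val-CAC-1-7 likewise had 0% in all AlkB+ libraries, against 0.0728%, 0.189% and 0.0963%. Counts of 0 in 2431, 733 and 4516 pooled AlkB+ reads allow rates of up to 0.123%, 0.409% and 0.0664% at the 3 sites in this order, for counting error alone. Their adjusted p-values lay between 0.244 and 0.337. A80 of Ser-TGA-4-1 was at 0.181%, 0.166% and 0.552% with AlkB, against 0.61%, 0.164% and 0.725% without it. On the higher side, A83 of Leu-CAG-2-1 had 0.236%, 0.251% and 0.713%, against 0.0884%, 0% and 0.122%. A58 of Gln-CTG-1-4 had 0.55%, 0.432% and 0.663% with AlkB, against 0.289%, 0.21% and 0.452% without it. The leucine groups did not overlap, the glutamine groups did, and the adjusted p-values were 0.244 and 0.345.

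High mismatch rates were rare and most stood on few reads. Among 514 sites read in all 6 libraries, 16 averaged 5% or more, and 1 of these had 20 reads in each library. That site, A66 of Gly-GCC-2-1, had 0.0808%, 0% and 0% with AlkB, against 0%, 35.3% and 0.561% without it, so that 1 library made its average. Without replicate 1, this site and A66 of Gly-CCC-1-1 were called lower. A67 of Gly-TCC-2-1 had 4.68%, 93.3% and 19.4% with AlkB from 342, 105 and 31 reads, against 0.726%, 0% and 0% without it from 1516, 55 and 10 reads.

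Mismatches at A21 of 5 valine tRNAs were frequent in every kind of library. With AlkB they ranged from 36.4% to 56.6%, from 24.6% to 41.0% and from 7.87% to 18.8% over the 5 genes in the 3 libraries. Without AlkB the second library had 33.3% to 61.1% and the third 30% to 56.1%, while the first had only 1 or 2 reads per site. Input RNA, which saw neither antibody nor enzyme, ranged from 24.6% to 59.4% over its 3 libraries. At A34 of Arg-ACG-2-1, the wobble base that adenosine deaminases convert to inosine in this tRNA, the rate was 94.0%, 100% and 58.3% with AlkB from 67, 7 and 12 reads. Without AlkB it was 100%, 83.3% and 100% from 4, 6 and 3 reads. Inputs had 3.85%, 0% and 0% there from 26, 32 and 13 reads.

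The second question was whether more cDNAs passed position 58 after AlkB. Read-through is the number of reads at position 58 as a percentage of the median number at listed sites within 8 nucleotides of the 3′ end. Summed over the 51 tRNA genes with both counts, it was 51.9%, 70.7% and 51.2% with AlkB, against 56.8%, 54.1% and 65.2% without it. The groups overlapped and the log2 ratio was -0.03 (exact paired permutation p = 1). With the mix of tRNAs held equal over 26 genes it was 49.6%, 77.2% and 51.3% with AlkB, against 55.5%, 50.1% and 60.9% without it, a log2 ratio of 0.07 with p = 1 in the same exact test. Leaving out 1 replicate turned the sign of either ratio: the first ran from -0.24 to 0.13 and the second from -0.28 to 0.24. Input RNA of the knockdown cells had 21.6%, 23.3% and 23.3%.

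The loss of reads at the base itself was similar in both portions. Reads at position 58 were 73.7%, 82.8% and 66.7% of those 1 nucleotide nearer the 3′ end with AlkB, against 72.8%, 67.5% and 74.8% without it. One nucleotide further 5′, the step was 80%, 78.8% and 79.8% with AlkB, against 99.7%, 85.7% and 81.3% without it. The second step was lower with AlkB in every library, with an exact paired permutation p of 0.25, the smallest possible.

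Gene by gene, limma called 0 of 26 tRNAs (0% called, 1 at an unadjusted p under 0.05). The AlkB+ libraries lay wholly above the AlkB- libraries in 3 genes, 11.5% of those tested, and wholly below in 3 others, also 11.5%. In all, 19 genes had a higher fitted value and 7 a lower one, with a median log2 difference of 0.26. Near-identical copies that may share reads count more than once in these numbers.

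All 5 tyrosine genes had a higher fitted value, and Tyr-GTA-8-1 the highest of the 26. It had 37.8%, 78.4% and 69.9% read-through with AlkB, against 0.476%, 17.4% and 7.11% without it. Every treated library exceeded every untreated one, and the log2 difference was 3.89 ± 0.94 (SE, n = 3 pairs; limma adjusted p = 0.381). Without replicate 1 it was the 1 gene called, at a log2 difference of 2.71 and an adjusted p of 0.0242. Tyr-GTA-5-4 had 58.5%, 71.9% and 77.1%, against 51.2%, 18.6% and 56.4%, also without overlap. Tyr-GTA-2-1 had 58.7%, 71.2% and 75.7% with AlkB, against 69.4%, 19.5% and 58.7% without it, where the first value came from 36 reads at the 3′ end. Tyr-GTA-5-5 and Tyr-GTA-7-1 followed the same course with 30 and 35 such reads. Summed over the 6 tyrosine genes, read-through was 49.8%, 65.3% and 70.6% with AlkB, against 2.91%, 15.2% and 51.5% without it.

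**Figure D2:**
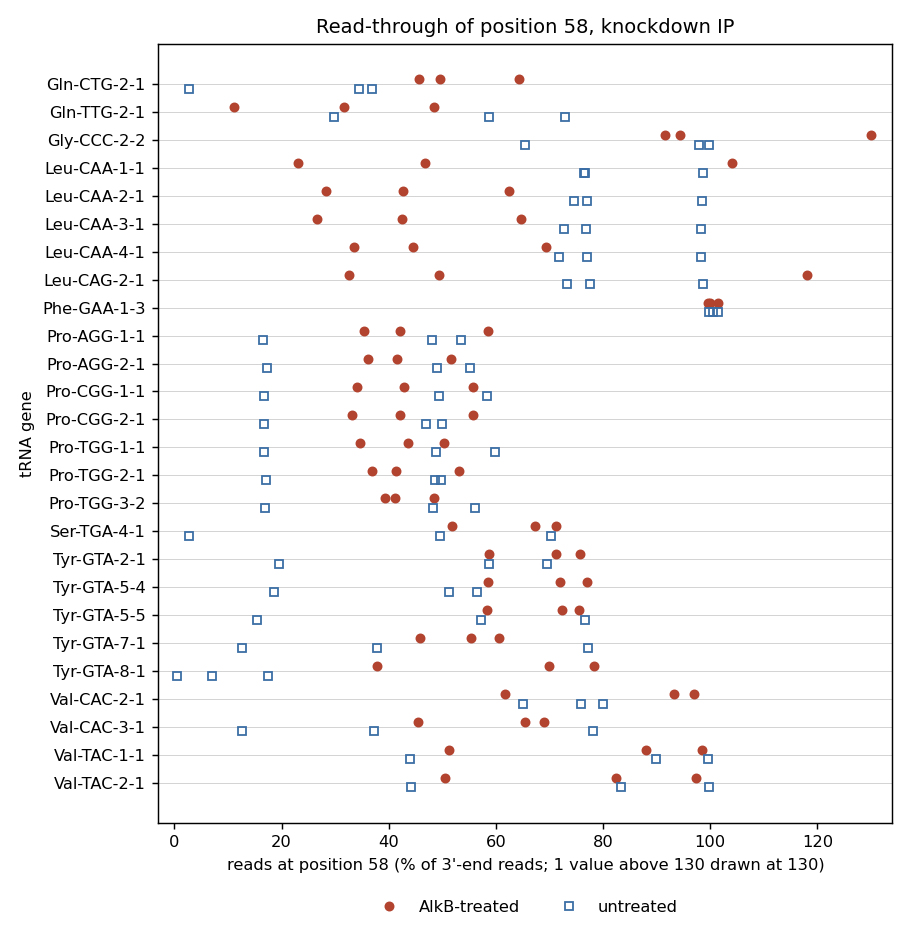
Read-through of position 58 (horizontal axis, percent of 3′-end reads) for 26 tRNA genes (vertical axis) in 3 AlkB-treated (filled circles) and 3 untreated (open squares) knockdown IP libraries. Tyr-GTA-8-1 and Leu-CAA-2-1 show separate groups in opposite directions, at 37.8% to 78.4% against 0.476% to 17.4% and at 28.4% to 62.4% against 74.5% to 98.5%.

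All 5 leucine genes had a lower fitted value. Leu-CAA-2-1 had 42.6%, 62.4% and 28.4% with AlkB, against 98.5%, 74.5% and 76.9% without it. The groups did not overlap, and the log2 difference was -0.97 ± 0.46 (SE, n = 3 pairs; limma adjusted p = 0.658). Leu-CAA-3-1 and Leu-CAA-4-1 did not overlap either, at 26.7% to 64.7% and 33.5% to 69.4% with AlkB, against 72.7% to 98.3% and 71.8% to 98.2%. Leu-CAA-1-1 and Leu-CAG-2-1 had 104% and 118% in the second AlkB+ library, and their groups overlapped. These 5 genes have the same 3′ end in sequence. Their values ran from 62.4% to 118% in the second AlkB+ library, and how far they share reads was not tested.

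Among the other families the fitted value was higher in all 4 valine and all 7 proline genes, in the 1 serine and the 1 glycine gene and in 1 of 2 glutamine genes, and lower in Gln-TTG-2-1 and Phe-GAA-1-3. Gln-CTG-2-1 had 49.6%, 64.3% and 45.6% with AlkB, against 2.70%, 34.4% and 36.8% without it, with separate groups and a log2 difference of 1.80 ± 0.93 (SE, n = 3 pairs; limma adjusted p = 0.658). Gln-TTG-2-1, which carries the other glutamine anticodon, had 48.5%, 31.7% and 11.1%, against 58.8%, 29.8% and 72.8%. The proline differences lay between 0.21 and 0.35 on the log2 scale. These 7 genes had similar counts, such as 300 to 329 reads at the 3′ end in the second AlkB- library, and are not taken as independent. Pro-TGG-1-1, the deepest of them, had 43.5%, 34.7% and 50.3% with AlkB, against 16.7%, 59.9% and 48.8% without it. Ser-TGA-4-1 had 51.9%, 67.4% and 71.3%, against 2.79%, 49.5% and 70.3%. Val-TAC-2-1 had 50.5%, 97.4% and 82.5%, against 99.8%, 44.1% and 83.3%, and Val-CAC-3-1 had 45.4%, 68.9% and 65.5%, against 37.3%, 78.0% and 12.7%.

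Phe-GAA-1-3 lost no reads at position 58 in any library: read-through was 100%, 101% and 99.6% with AlkB, against 101%, 101% and 99.9% without it. A value above 100% means more reads at position 58 than at the 3′ end. Gly-CCC-2-2 reached 676% in the second AlkB+ library from 37 reads at the 3′ end, and had 91.5% and 94.4% in the others, against 65.4%, 98% and 99.8% without AlkB.

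Coverage at every listed site further than 8 nucleotides from the 3′ end was tested in the same way. Of 100 sites, 4 were called (4%), all lower with AlkB, and 20 had an unadjusted p under 0.05. The 4 sites were A41, A43, A53 and A54 of Tyr-GTA-2-1, which carried identical counts and so reflect 1 set of reads. All 4 lie in or directly after the intron that the listed sequence keeps. The calls thus concern reads aligned to intron bases, not coverage of the spliced tRNA past position 58. These sites had 0, 1 and 1 reads with AlkB, against 0, 91 and 1215 reads without it. The 1215 reads exceeded the 1066 reads at the 3′ end of the gene in that library, so not all of them extended from that end. The limma adjusted p was 0.0274. No site was called without replicate 1, 2 or 3, where the lowest adjusted p ran from 0.0961 to 0.182. With the replicate block left out, 0 sites were called as well, with a lowest adjusted p of 0.25.

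The third question was which tRNAs made up each portion. In bulk libraries, a share of reads cannot tell a change of one tRNA from an opposite change of the others. Each gene entered with its highest site count, and the 18 genes near the depth cap were left out of every share and of its total. The shares are therefore not those of all tRNA reads. Per gene, edgeR's quasi-likelihood test on the highest count of each gene called 0 of 117 genes (0% called, 16 at an unadjusted p under 0.05). The number varied with the method: DESeq2 called 15 genes, 9 higher and 6 lower, and the median of 3′-end sites in place of the highest count gave 5 lower calls. Without replicate 1, edgeR called 3 alanine genes higher, namely Ala-CGC-3-1, Ala-TGC-4-1 and Ala-AGC-4-1.

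Summed by amino acid, a step added after the shares had been seen, 1 of 20 groups was called (5%). Leucine tRNAs made up 9.76%, 6.59% and 12.3% of reads with AlkB, against 21.1%, 13.9% and 28.7% without it. The share was lower in 3 of 3 pairs, and edgeR's fitted log2 difference was -1.64 (edgeR adjusted p = 0.0198). edgeR fits these log2 differences after its own scaling of the libraries (TMM). They are therefore not log2 ratios of the printed shares, and the leucine shares themselves fell by less. The call was lost without replicate 1 (log2 -1.37, adjusted p = 0.328), without replicate 3 (log2 -1.74, adjusted p = 0.276) and without the replicate block, where the lowest adjusted p was 0.143. Without replicate 2 the fitted leucine difference was -2.63 (edgeR adjusted p = 1.72e-07). Proline (log2 -2.42, edgeR adjusted p = 0.000144) and threonine (log2 -2.56, edgeR adjusted p = 0.00105) were called lower as well. In that fit glutamine was at -0.39, although its share rose in replicates 1 and 3, at 10.8% and 18.8% with AlkB against 4.99% and 9.32%. The part of edgeR's scaling in these calls was not tested. Tyrosine tRNAs made up 21%, 17.7% and 19.7% with AlkB, against 4.62%, 11.6% and 6.51% without it. The groups did not overlap, but the adjusted p was 0.289. The share of tyrosine in knockdown input was 19.2%, 19.4% and 21.3%, and that of leucine 3.53%, 3.33% and 3.65%.

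Of the 20 amino acids, 4 lay wholly higher with AlkB (20%) and 3 wholly lower (15%). Besides tyrosine, the higher ones were arginine at 6%, 5.28% and 5.75%, against 3.21%, 2.15% and 0.318%, aspartate and phenylalanine. Aspartate had 0.58%, 2.86% and 0.872%, against 0.0046%, 0.352% and 0.00424%. Phenylalanine had 3.45%, 1.19% and 1.74%, against 0.0644%, 0.735% and 0.968%. Besides leucine, the lower ones were threonine at 7.30%, 4.58% and 4.10%, against 15.7%, 8.13% and 8.73%, and glycine at 0.976%, 0.819% and 1.09%, against 1.79%, 3.33% and 2.25%. None of these 5 passed, with edgeR adjusted p-values from 0.195 to 0.561. Threonine, at a fitted log2 difference of -1.51 after edgeR's scaling, was called at -2.56 without replicate 2.

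**Figure D3:**
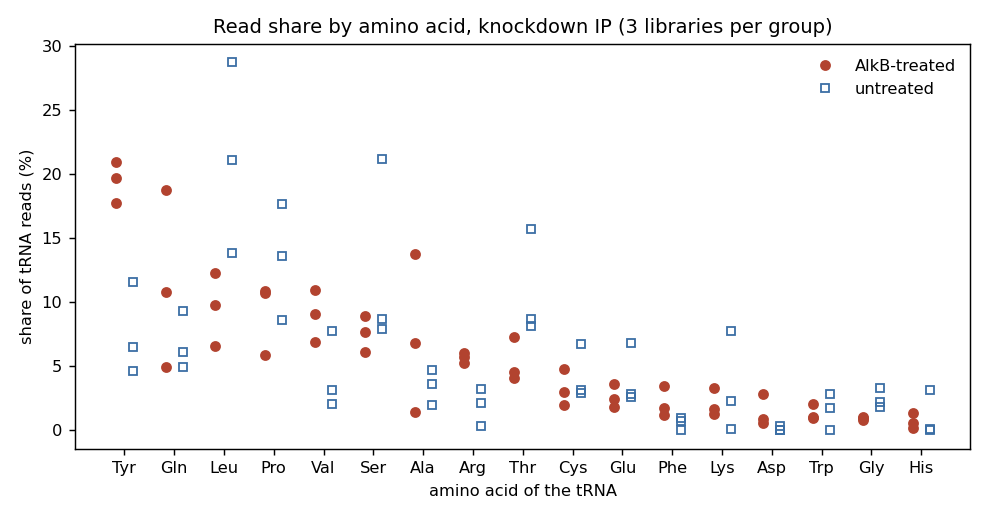
Share of tRNA reads (vertical axis, percent) by amino acid (horizontal axis) in the 3 AlkB-treated (filled circles) and 3 untreated (open squares) knockdown IP libraries, for amino acids with a mean of at least 1% in either group. Shares are of the highest site counts of genes, with the 18 genes near the depth cap left out. Tyrosine lies at 17.7% to 21% against 4.62% to 11.6%, and leucine at 6.59% to 12.3% against 13.9% to 28.7%.

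The vector cells, whose IP was split in the same way and shares no library with the knockdown, served to ask whether the response to AlkB differed. For mismatch it was not detectably different: 0 of 228 sites passed limma's test of the difference between responses (0% called, 8 at an unadjusted p under 0.05). In the vector comparison alone 1 of 285 sites was called (0.351%). Per gene, 10 of 108 read shares (9.26%) and 4 of 33 read-through values (12.1%) were called in the vector comparison. The 4 read-through calls were Tyr-GTA-2-1, 5-4, 5-5 and 7-1, all higher with AlkB. These near-identical copies are not taken as independent. For the amino-acid shares, leucine was lower with AlkB in the vector cells too, at 4.77%, 8.34% and 11.2%, against 23.9%, 25.6% and 26.3% (edgeR adjusted p = 0.00452). Tyrosine was higher there at 28.8%, 23.9% and 20.3%, against 4.69%, 2.29% and 10.6% (edgeR adjusted p = 0.0158). The difference between the cells in these shares was not tested.

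For read-through, differences were called at tyrosine tRNAs. Of 26 genes, 5 passed limma's test of the difference between responses (19.2% called), all of them Tyr-GTA. Tyr-GTA-2-1, 5-4, 5-5 and 7-1 each had 441 to 446 reads at the 3′ end in the second untreated knockdown library. Their calls are not taken as independent. Tyr-GTA-8-1 had 37.8%, 78.4% and 69.9% with AlkB, against 0.476%, 17.4% and 7.11% without it in knockdown cells. In vector cells it had 12.5%, 33.9% and 39.5%, against 47.0%, 65.5% and 99.7%, where 65.5% came from 29 reads at the 3′ end. AlkB went with higher read-through in the knockdown and lower read-through in the vector libraries, and the difference was 5.29 ± 1 on the log2 scale (SE, limma adjusted p = 0.000892). Tyr-GTA-2-1 showed the reverse order. In vector cells it had 38.4%, 71.6% and 64.6% with AlkB, against 2.49%, 7.47% and 3.60% without it, and its response was lower in the knockdown by a log2 difference of -3.10 ± 0.89 (SE, limma adjusted p = 0.0245). Tyr-GTA-5-4, 5-5 and 7-1 differed by -2.85, -2.89 and -3.19 at the same adjusted p. None of the 5 calls held without replicate 1, where the lowest adjusted p was 0.173, while the differences were 3.85 for Tyr-GTA-8-1, -2.57 for Tyr-GTA-2-1, -2.64 for Tyr-GTA-5-4, -2.09 for Tyr-GTA-5-5 and -2.86 for Tyr-GTA-7-1. Without replicate 3, Tyr-GTA-8-1 alone passed (adjusted p = 0.0253). With a minimum of 50 reads at the 3′ end, 0 of 17 genes passed. All 5 called genes fell below that minimum in at least 1 library, so this setting could not test them. Tyr-GTA-2-1, 5-4, 5-5 and 7-1 had 30 to 43 such reads in the first untreated knockdown library.

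**Figure D4:**
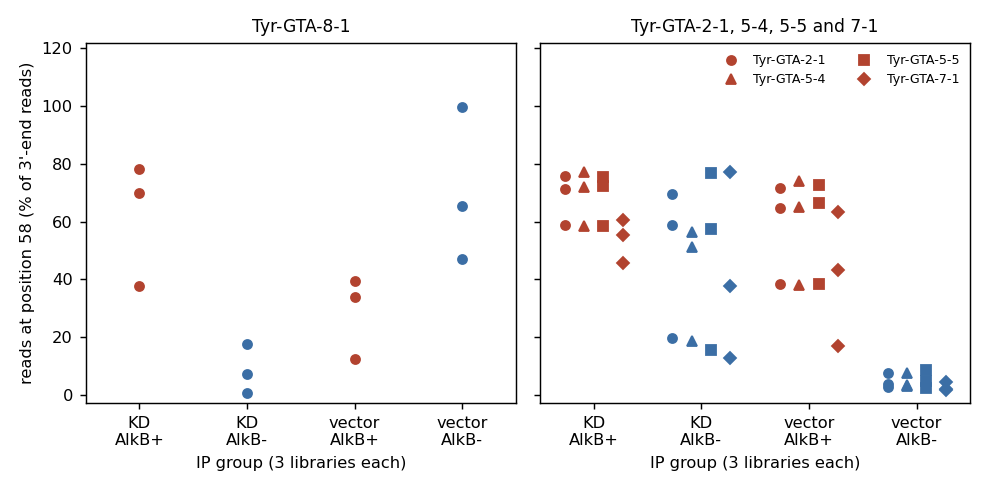
Read-through of position 58 (vertical axis, percent of 3′-end reads) for Tyr-GTA-8-1 (left) and 4 other Tyr-GTA genes (right) in AlkB-treated and untreated IP libraries of knockdown (KD) and vector cells (horizontal axis); each symbol is a gene in a library. Untreated Tyr-GTA-8-1 lies at 0.476% to 17.4% in knockdown and at 47.0% to 99.7% in vector cells.

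The 5 called tyrosine genes can be set side by side in sequence. Counted from 1 at the 3′ end, Tyr-GTA-2-1 and Tyr-GTA-8-1 differ by T15A directly after position 58, and by 4 bases in all over the last 40. The others, at bases 37, 38 and 40, lie in the intron kept in the listed sequence. Tyr-GTA-5-4, 5-5 and 7-1 share T15A against Tyr-GTA-8-1. How tyrosine reads were divided between genes also varied. Of the 6 tyrosine genes with counts at both places, Tyr-GTA-8-1 and Tyr-GTA-6-1 have A after position 58, and together they held 20.8%, 24.4% and 17.4% of the 3′-end reads of these 6 genes with AlkB, against 96.2%, 31.7% and 5.22% without it. Read-through of Tyr-GTA-6-1, which had too few reads to be tested, was 8.96%, 1.57% and 17.4% with AlkB, against 0.15%, 2.8% and 0% without it in knockdown cells. In vector cells it was 20.4%, 0.748% and 112%, against 0.722%, 96.4% and 0.128%. Its values overlapped between the portions in both kinds of cells. For the shares of 3′-end reads, the spread of the untreated libraries was thus far wider than that of the treated ones. Summed over all tyrosine genes, the difference between knockdown and vector responses was 1.13 on the log2 scale and did not pass (limma adjusted p = 0.878).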

How the data were processed

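The authors deposited raw values without normalisation: per the file headers, each site has in every library a count of covering reads and a count of mismatched reads. Their mismatch rate, deposited as a fraction, equalled the quotient of these counts within 1e-09. Tools were SAMtools 1.3.1, Bowtie2 2.2.4 and cutadapt 1.9.3 with the build hg38, per the submitters' processing notes. Which settings they ran with is not given in the sources used here. Another 19 lines were not analysed here, and 12 columns of differences and folds were not used. Of 180 genes, 172 matched a RefSeq gene by coordinates, and 6 repeated lines were counted once.

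Mismatch was tested in R 4.3.3 with a quasi-binomial model on sites that reached 20 reads in every library. It was first fitted with each site's own dispersion. After that result had been seen, and after several ways of setting the dispersion had been tried on simulated data, the larger of the site's own and a trimmed mean over sites was taken, at least 1. Read-through and relative coverage were tested with limma 3.58.1 on log2 ratios with a pseudocount of 0.5, and shares with edgeR 4.0.16, with DESeq2 1.42.0 as an alternative. Adjustment was by Benjamini-Hochberg at 0.05, two-sided. The quasi-binomial, limma and edgeR tests of treated against untreated libraries were run on simulated data. The limma test of knockdown minus vector, DESeq2 and the exact permutation tests were not.

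The replicate number was a block because each eluate was divided. Same-numbered libraries correlated in their deviations by 0.154, -0.106 and 0.0807 for mismatch and by 0.0695, -0.0447 and 0.241 for reads. Treated and untreated libraries of different number correlated from -0.197 to 0.0896 for mismatch and from -0.337 to 0.244 for reads. The correlations thus gave no clear sign of the pairing. Libraries were grouped by their labels. Named sites were up to 6 per direction by smallest p, the deepest position-58 site per amino acid, and sites averaging 5% or more; genes likewise by read-through. Members, lists and rules were chosen with earlier results of these data known. Per-anticodon and per-amino-acid sums and the per-site dispersion were added after the data were seen.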

Additional observations from a re-analysis of the deposited data

Results flagged for a closer look

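At 5 tyrosine genes the response of read-through to AlkB differed between knockdown and vector cells by limma's test of the difference. The knockdown response minus the vector response was 5.29 for Tyr-GTA-8-1, -3.10 for Tyr-GTA-2-1, -3.19 for Tyr-GTA-7-1, -2.85 for Tyr-GTA-5-4 and -2.89 for Tyr-GTA-5-5 on the log2 scale. The untreated knockdown libraries had 30 to 43 reads at the 3′ end of the last 4 genes in replicate 1. Tyr-GTA-8-1 had 29 such reads in the untreated vector library of replicate 2. The part of these depths in the result was not tested.

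Only the 39 named sites were searched for opposite signs, and of these only sites with 20 reads in each of the 12 IP libraries. At 2 of them all 3 knockdown pairs moved one way and all 3 vector pairs the other. Both had been named for a small p in the knockdown comparison. How many of the remaining sites showed this pattern was not counted. The mismatch rate at A58 of Arg-ACG-2-1 was higher with AlkB by 0.286 percentage points in knockdown cells, with a difference of -0.571 in vector cells. At A60 of Val-AAC-1-1 the difference was -0.369 percentage points in knockdown cells and 0.475 in vector cells. The difference between the cells was not tested for this pattern of signs, and 0 of 228 sites passed the limma test of it.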

How the results depend on the processing

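Of 83 alternative values for 11 results, 59 were labelled the same. For a count of calls this meant a count equal or close to the reported one. For the mismatch medians, the pooled rate and the read-through ratios it meant the same sign and the same side of 0.05. Their exact tests cannot reach 0.05, so only the sign of these could change. The count of mismatch calls, 0 as reported, was 26 with each site's own dispersion, the first version fitted, and 1 with edgeR; it ran from 0 to 2 when a replicate was left out. The summed read-through ratio (log2 -0.03) ran from -0.24 to 0.13 without a replicate, and the ratio with the mix held (0.07) from -0.28 to 0.24; with a minimum of 50 reads at the 3′ end the second ratio was -0.12. Read-through calls per tRNA (0) ran from 0 to 1 without a replicate. Relative coverage calls (4) were 0 without any 1 replicate, 0 without the replicate block, 0 with 50 reads and 7 with 10 reads. The minimum of 50 reads left out Tyr-GTA-2-1, the gene of all 4 calls. Read-share calls (0) ran from 0 to 3 without a replicate, and were 5 from the 3′-end median, 15 with DESeq2 and 1 per amino acid. Calls on the read-through response (5) ran from 0 to 5 without a replicate, and were 3 with capped genes, 1 with 10 reads, 0 with 50 reads and 0 per anticodon. The minimum of 50 reads left out all 5 called genes and so could not test them. The cause of these changes was not tested. Without the replicate block the leucine share was not called either, and no other call changed among the results that were fitted without it; the responses of knockdown minus vector were not; same-numbered libraries did not all correlate above 0.1, so the pairing rests on the protocol alone. With 3 pairs the exact paired test cannot go below 0.25, and the first AlkB- library, with 394 sites of 20 reads or more, limits the sites tested.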
